A study of Mus musculus with 24 samples.

Results

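Taurochenodeoxycholic acid (TCDCA) is the taurine conjugate of chenodeoxycholic acid, a primary bile acid made by the liver from cholesterol. The account covers CD8+ T cells of the mouse, activated in vitro and exposed to 100 µM TCDCA, set against cells of the same kind labelled control, for which the labels name no vehicle. The comparison holds 6 of the 24 RNA-seq libraries of the series, 3 of TCDCA and 3 of control, and was made over all 13044 genes with enough reads to be tested, of 24537 in the table. Taurocholic acid (TCA), also a taurine conjugate given at 100 µM, was the only other acid of the series at that dose, and its 3 libraries serve for a direct comparison. The exposure was 24 h by the series' design text and overnight by the treatment protocol of the labels. The series asks how bile acids bear on T cells in liver tumours. The labels name no genotype, strain or age for these cells, and TCDCA, TCA and control cells share the activation in culture. Whether replicates are separate animals or separate cultures is not stated in the labels. The p-values therefore measure only the spread between libraries of a group, estimated over all 24 libraries of the series, and that spread may be technical.

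Bile acids act as signals as well as detergents. The nuclear receptor FXR (Nr1h4) and the membrane receptor TGR5 (Gpbar1), which raises cyclic AMP, are their best known sensors, and the sphingosine 1-phosphate receptor S1pr2 responds to conjugated bile acids. Taurine conjugates stay charged at body pH and mostly need transporters to enter a cell. Activated CD8+ T cells depend on glycolysis and on the oxygen-regulated factor HIF1α, which T cell receptor and cytokine signals raise even when oxygen is plentiful. HIF1α is hydroxylated by the prolyl hydroxylases Egln1 and Egln3 and then degraded; when it escapes this, it binds the core letters ACGTG of hypoxia response elements and raises genes of glycolysis, mitophagy and matrix protein hydroxylation.

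The TCDCA libraries held 32015167.5 to 33401461 counts in genes, and the control libraries held 32308354.5 to 37269527.5. The summed level of the CD8+ T cell markers (7 of the 8 listed had a value) was 3062 to 3183 CPM with TCDCA and 2927 to 3034 CPM in control. CPM are counts scaled to a common library size, with TMM factors. Cd8a stood at 741 to 774 CPM with TCDCA and 616 to 636 CPM in control. Cd3d, Cd3e, Cd3g, Cd8b1, Cd2 and Lck each overlapped between the groups. The defining markers of other cell types were scarce. The myeloid list summed to 0.250 to 0.582 CPM with TCDCA and 0.359 to 0.744 CPM in control, with S100a8 at 0, and the B cell list to 5.04 to 5.58 CPM with TCDCA and 5.88 to 6.38 CPM in control, nearly all of it Cd79b, with Pax5 at 0. The CD4+ T cell list summed to 33.6 to 35.0 CPM with TCDCA and 39.6 to 43.8 CPM in control, nearly all of it Zbtb7b, while Cd4 itself stayed under 1 CPM. The NK list summed to 32.5 to 34.5 CPM with TCDCA and 26.3 to 27.6 CPM in control, nearly all of it Eomes, which CD8+ T cells also express. The stromal and hepatic list summed to 35.9 to 39.6 CPM with TCDCA and 45.3 to 51.8 CPM in control, nearly all of it Pecam1, with Alb and Apoa1 at 0 in these 6 libraries. The erythroid list stayed under 1 CPM in every library. The part of these differences in the results was not tested. The share of counts in Rn45s, which encodes ribosomal RNA, was 0.628% to 0.999% with TCDCA and 0.914% to 1.51% in control, ranges that overlap. The gene was called lower (log2 fold change -0.65 ± 0.21, adjusted p = 0.0420), a call that was lost with DESeq2 (adjusted p = 0.0829) and without TCDCA replicate 1 or 2 or control replicate 2 or 3 (adjusted p = 0.0997 to 0.228).

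TCDCA changed more genes downward than upward, and the falls were larger. Of the 13044 genes tested, 1712 were called, which is 13.1% (edgeR quasi-likelihood test, Benjamini-Hochberg adjusted p under 0.05). These were 663 higher genes (5.08%) and 1049 lower genes (8.04%). Most changes were small, with a median absolute log2 fold change of 0.25 among called genes, and the median over all tested genes was 0.00. Changes beyond 2-fold numbered 11 higher and 73 lower. In 1677 of the 1712 called genes the 3 TCDCA libraries lay wholly above or wholly below the 3 control libraries, which held for 32.8% of all tested genes. Single libraries weighed on the count: 898 genes were called without control replicate 2, 1091 without TCDCA replicate 1 and 1105 without TCDCA replicate 2. Of these, 282, 343 and 369 were higher. Without control replicate 3 or TCDCA replicate 3, the higher genes numbered 400 and 402. Lower genes numbered 616 without control replicate 2. In these bulk samples, fewer cells of a type and less RNA per cell cannot be told apart.

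**Figure D1:**
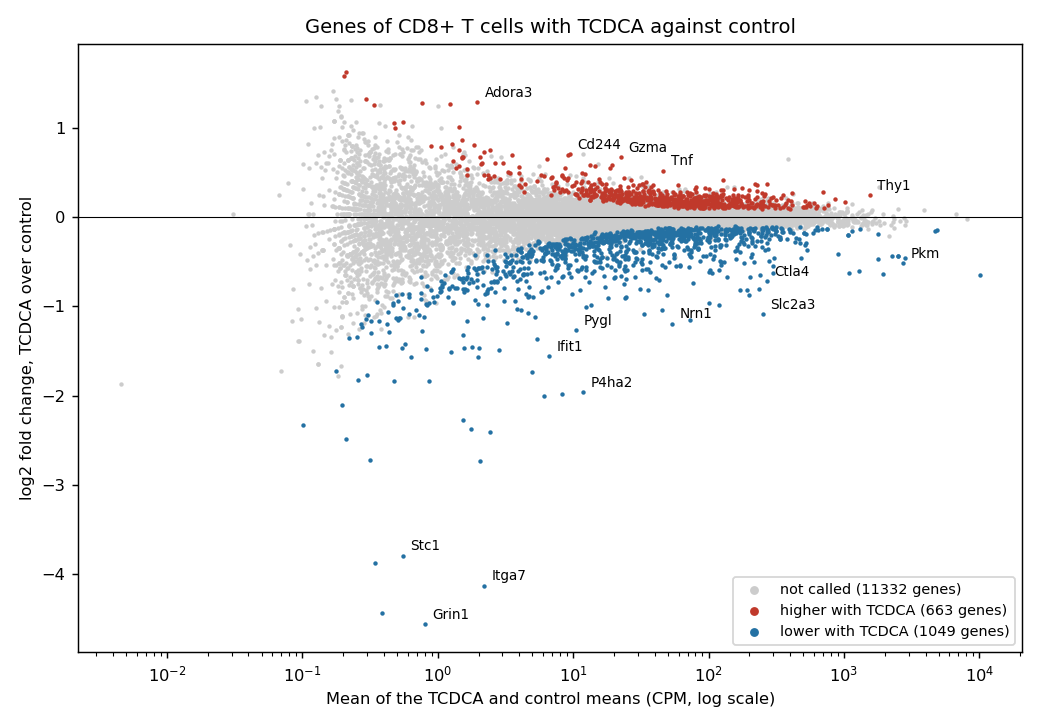
Each point is 1 of the 13044 tested genes; the horizontal axis is the mean of the TCDCA and control means in CPM on a log scale and the vertical axis the log2 fold change of TCDCA over control. The 663 higher genes (red) mostly lie below 1 on the log2 scale, while the 1049 lower genes (blue) reach -4.56 at Grin1.

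Genes of the response to low oxygen were lower with TCDCA. Of 30 tested hypoxia response genes, listed without the glycolytic enzymes, 25 were lower with TCDCA (83.3%, against 8.04% of all genes) and 0 were higher by edgeR, by DESeq2 or at an unadjusted p under 0.05, with a median log2 fold change of -0.52. Among them was P4ha2, a subunit of the prolyl 4-hydroxylase that modifies collagen (chr11:54100924-54131667 in mm10, plus strand). The promoters of P4ha2 and Bnip3 from this list, and of Slc16a3, Pgk1 and Ldha from glycolysis, are shown because these genes fell and hold the core of the hypoxia response element or its reverse complement, in capitals, within 250 bases before to 50 bases after the RefSeq start site (RefSeq, GRCm38.p6).
P4ha2, chr11:54100674-54100973, plus strand: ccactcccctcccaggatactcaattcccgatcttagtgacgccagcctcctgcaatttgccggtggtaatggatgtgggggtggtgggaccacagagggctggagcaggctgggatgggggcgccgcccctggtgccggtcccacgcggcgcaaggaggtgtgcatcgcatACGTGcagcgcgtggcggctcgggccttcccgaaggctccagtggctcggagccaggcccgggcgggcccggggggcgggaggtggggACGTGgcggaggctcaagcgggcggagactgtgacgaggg
Bnip3, chr7:138909457-138909756, minus strand: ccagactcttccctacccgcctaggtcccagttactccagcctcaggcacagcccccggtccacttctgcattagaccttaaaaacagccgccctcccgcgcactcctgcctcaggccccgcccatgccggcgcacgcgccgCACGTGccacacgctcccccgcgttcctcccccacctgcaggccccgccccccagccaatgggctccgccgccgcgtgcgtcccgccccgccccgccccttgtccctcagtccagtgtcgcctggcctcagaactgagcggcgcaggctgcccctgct
Slc16a3, chr11:120948817-120949116, plus strand: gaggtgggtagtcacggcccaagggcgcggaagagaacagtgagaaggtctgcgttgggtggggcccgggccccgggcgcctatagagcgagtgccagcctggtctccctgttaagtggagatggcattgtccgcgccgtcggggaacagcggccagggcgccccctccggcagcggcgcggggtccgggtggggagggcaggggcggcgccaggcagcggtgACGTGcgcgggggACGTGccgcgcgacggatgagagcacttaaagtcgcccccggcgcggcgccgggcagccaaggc
Pgk1, chrX:106186850-106187149, plus strand: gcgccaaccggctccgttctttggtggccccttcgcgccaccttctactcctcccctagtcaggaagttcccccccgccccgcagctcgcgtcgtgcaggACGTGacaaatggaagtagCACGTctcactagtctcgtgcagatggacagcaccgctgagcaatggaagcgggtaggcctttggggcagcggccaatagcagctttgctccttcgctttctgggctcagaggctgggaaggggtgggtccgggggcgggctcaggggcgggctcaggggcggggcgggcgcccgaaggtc
Ldha, chr7:46845554-46845853, plus strand: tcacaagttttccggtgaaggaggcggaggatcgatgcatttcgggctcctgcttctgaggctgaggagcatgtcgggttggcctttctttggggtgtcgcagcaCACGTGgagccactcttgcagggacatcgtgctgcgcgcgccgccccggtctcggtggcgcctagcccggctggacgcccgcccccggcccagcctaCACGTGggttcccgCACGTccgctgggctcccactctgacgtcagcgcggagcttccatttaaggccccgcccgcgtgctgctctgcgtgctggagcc

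The element's core was searched as ACGTG on both strands, so that the E-box CACGTG, which Myc also binds, holds it on each strand. It stood in 26.2% of the promoters of the 9904 tested genes with an entry (1 promoter per gene, the nearest to the start of the counted transcript), in 29.1% of those of genes called lower and in 26.1% of those of genes called higher. Of genes called lower beyond 2-fold, 15 of 52 promoters held it (28.8%). In the hypoxia list 14 of 23 promoters held it (60.9%), and in the glycolysis list 13 of 23 (56.5%). The list shares count tested members whether called or not, so they describe the lists and not the change with TCDCA. The E-box stood in 10.3% of the 9904 promoters and in 3 of 23 (13%) in each of the hypoxia and glycolysis lists. A match is a description of these letters, and no binding was measured.

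P4ha2 stood at 4.93, 4.41 and 5.22 CPM in the TCDCA libraries, against 16.3, 23.5 and 17 CPM in the control libraries. All 3 TCDCA libraries lay far below the lowest control library, with replicate 2 the highest of the control libraries (log2 fold change -1.96 ± 0.19, adjusted p = 8.97e-08; the ± values of log2 fold changes are standard errors). Bnip3l, a mitophagy receptor, had 82, 78.9 and 80.8 CPM in the TCDCA libraries, against 148, 174 and 156 CPM in the control libraries. The TCDCA libraries were nearly equal and below every control library (log2 fold change -0.98 ± 0.08, adjusted p = 9.15e-09). Its relative Bnip3 averaged 139 ± 7.35 CPM with TCDCA and 256 ± 18 CPM in control (SD, n = 3 each; log2 fold change -0.88 ± 0.09). Ndrg1, a gene known to rise in low oxygen, had 46.8, 44.4 and 45.4 CPM in the TCDCA libraries, against 94.5, 117 and 92.9 CPM in the control libraries. Again the groups did not overlap (log2 fold change -1.15 ± 0.11, adjusted p = 6.93e-08). Ak4, an adenylate kinase of mitochondria, differed by -1.04 ± 0.10 on the log2 scale.

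The prolyl hydroxylases that act on HIF1α were lower as well, with log2 fold changes of -0.82 ± 0.09 for Egln3 and -0.46 ± 0.05 for Egln1. Enzymes of the secretory pathway followed: Ero1l, which oxidises disulfides, at -0.81 ± 0.09; Plod2, a collagen lysyl hydroxylase, at -0.73 ± 0.07; and P4ha1 at -0.53 ± 0.05. Hif1a itself, which encodes HIF1α, was slightly lower (log2 fold change -0.25 ± 0.04, adjusted p = 2.34e-04). These are transcript levels, and the protein was not measured. The members that were not called were Vegfa, Car9, Pam, Plod1 and Wsb1. Vegfa, the angiogenic growth factor, stood at 34, 32.5 and 40.2 CPM in the TCDCA libraries, against 39.2, 45.2 and 41.3 CPM in the control libraries. Its difference had a 95% interval of -0.41 to -0.06 on the log2 scale and an adjusted p of 0.0696, and it passed the test without the filter on low counts (adjusted p = 0.0235), with the replicate block (adjusted p = 0.0470), with only these 6 libraries fitted (adjusted p = 0.0382) and with DESeq2 (adjusted p = 0.0495), and without TCDCA replicate 3 or control replicate 1 (adjusted p = 0.0197 to 0.0462). Adm and Ppp1r3c had too few counts to be tested.

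Genes of glycolysis were lower from glucose uptake to lactate export. Of the 24 tested transporters and enzymes, 20 were lower with TCDCA (83.3%, against 8.04% of all genes). Members higher by edgeR, by DESeq2 or at an unadjusted p under 0.05 numbered 0. The median log2 fold change was -0.43. The neuronal-type glucose transporter Slc2a3 (GLUT3) stood at 158, 157 and 167 CPM in the TCDCA libraries, against 312, 389.6 and 324 CPM in the control libraries. The groups were widely apart (log2 fold change -1.09 ± 0.09, adjusted p = 9.15e-09). Slc2a1 (GLUT1), the main glucose transporter of activated T cells, was lower too (log2 fold change -0.51 ± 0.06, adjusted p = 1.44e-06). Hexokinases Hk1 and Hk2 differed by -0.37 and -0.24 on the log2 scale, and the call of Hk2 was lost without TCDCA replicate 1 or 2 or control replicate 2 (adjusted p = 0.0753 to 0.10).

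In the lower part of the pathway, Pkm, which encodes the pyruvate kinase of T cells, had 2223, 2259 and 2269 CPM in the TCDCA libraries, against 3042, 3315 and 3309 CPM in the control libraries. Its change was modest in size but large beside the spread (log2 fold change -0.52 ± 0.04, adjusted p = 9.15e-09). Slc16a3, the lactate exporter MCT4, had 158, 172 and 180.3 CPM in the TCDCA libraries, against 282, 311 and 300.3 CPM in the control libraries. No TCDCA library reached the lowest control library (log2 fold change -0.81 ± 0.06, adjusted p = 5.65e-09). Aldoc, an aldolase, differed by -1.09 ± 0.11, Tpi1 by -0.62 ± 0.06, Pgk1 by -0.60 ± 0.05 and Ldha, a subunit of lactate dehydrogenase, by -0.45 ± 0.06 on the log2 scale. Pdk1, the kinase that holds pyruvate back from mitochondria, differed by -0.39 ± 0.05. The 4 members that were not called were Slc16a1 (MCT1), Ldhb, Pfkfb4 and Eno2, the last of these at -0.64 with a mean of 0.699 CPM with TCDCA and 1.10 CPM in control.

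Pygl, a glycogen phosphorylase that releases glucose units, had 6.35, 5.82 and 6.25 CPM in the TCDCA libraries, against 14.2, 18.2 and 12.2 CPM in the control libraries. Every TCDCA library lay below every control library (log2 fold change -1.27 ± 0.19, adjusted p = 5.14e-05). The glycogen synthase Gys1 and the branching enzyme Gbe1, both members of the hypoxia list, differed by -0.56 ± 0.07 and -0.66 ± 0.08 on the log2 scale.

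**Figure D2:**
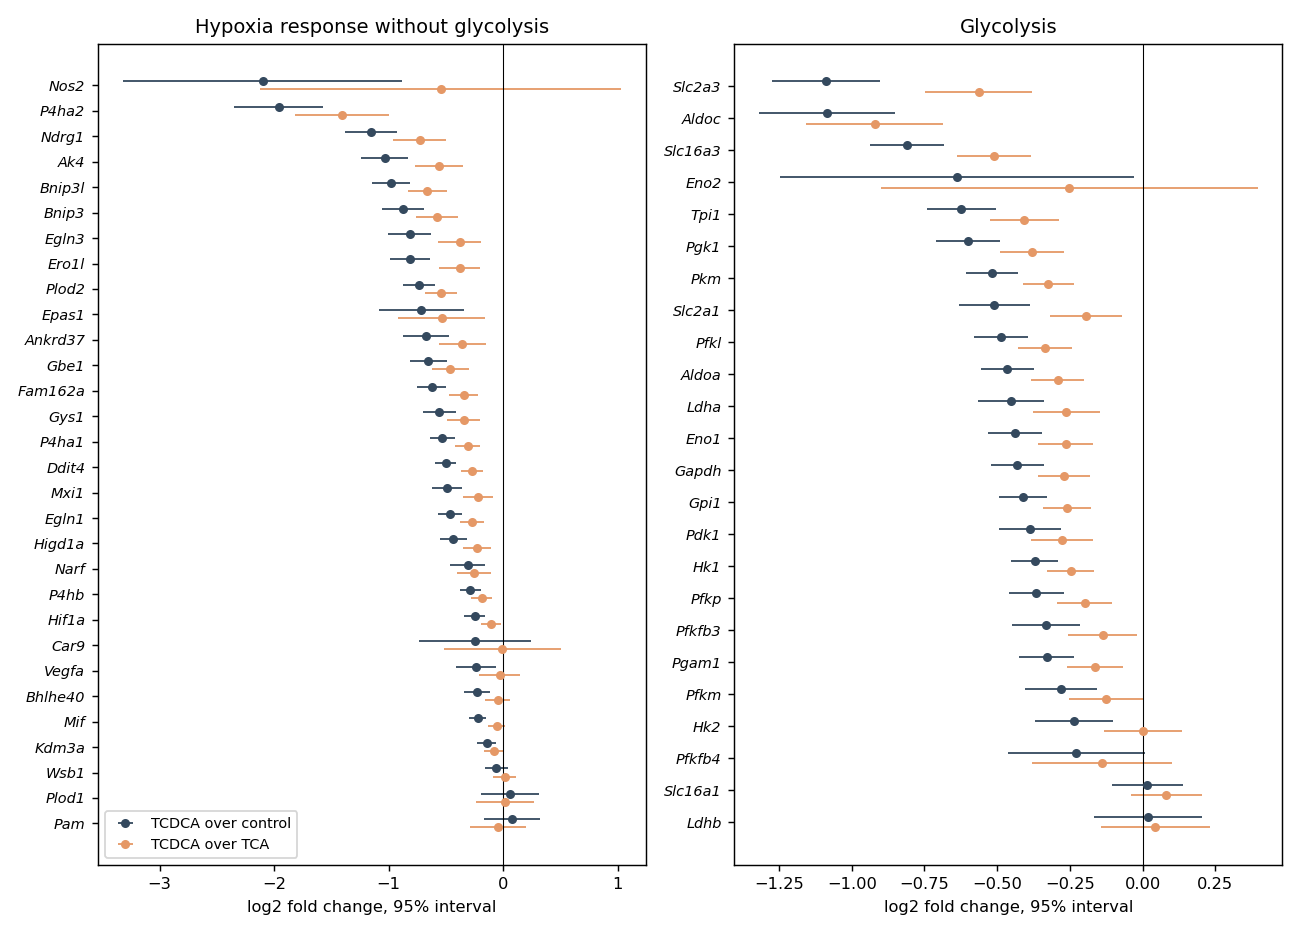
Log2 fold changes with 95% intervals of the tested members of the hypoxia list (left) and the glycolysis list (right), for TCDCA over control (dark) and TCDCA over TCA (orange). P4ha2 lies at -1.96 against control and -1.41 against TCA, and Slc2a3 at -1.09 and -0.56.

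The largest falls of all were in scarce transcripts. Among genes whose higher group mean was 1 to 10 CPM, Grin1, a subunit of the NMDA glutamate receptor, had 2, 2 and 2 counts in the TCDCA libraries, against 46, 70 and 37 counts in the control libraries. Its reads cannot be told apart from those of the antisense gene Grin1os where counting did not use strand, so the value is uncertain (log2 fold change -4.56 ± 0.60, adjusted p = 8.55e-06). Itga7, an integrin subunit that binds laminin, had 13, 4 and 6 counts in the TCDCA libraries, against 137, 155 and 124 counts in the control libraries. No TCDCA library came near the control range (log2 fold change -4.13 ± 0.39, adjusted p = 6.74e-08). Stc1, the secreted glycoprotein stanniocalcin, had 3, 2 and 2 counts in the TCDCA libraries, against 33, 44 and 27 counts in the control libraries without overlap (log2 fold change -3.79 ± 0.53, adjusted p = 1.74e-05). The copper transporter Atp7b and Smtnl2 completed the 5 largest falls in this range, at -2.41 and -2.73 on the log2 scale.

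Genes of higher level were ranked where the mean of TCDCA or of control was at least 10 CPM. Entry also required that the TCDCA and control libraries did not overlap, as for the scarcer genes, so their separation is no further support. P4ha2, Pygl, Acvrl1 and Endou reached a mean of 10 CPM in control alone, and Lmna, Ifngr2 and Tnfrsf21 with TCDCA alone. Vldlr, the receptor for very low density lipoprotein, led the falls in this ranking, which it entered through its control level alone. It had 3.18, 3.37 and 3.47 CPM in the TCDCA libraries, against 11.6, 16.5 and 11.6 CPM in the control libraries. All TCDCA libraries lay below all control libraries (log2 fold change -1.98 ± 0.23, adjusted p = 1.52e-06). Nrn1, a small membrane-anchored protein first studied in neurons, had 32.3, 31.7 and 34.2 CPM in the TCDCA libraries, against 67.4, 83.3 and 73.3 CPM in the control libraries. Its difference was among those with the smallest adjusted p of the comparison (log2 fold change -1.19 ± 0.09, adjusted p = 6.02e-09). The remaining large falls were Acvrl1, a receptor of the TGFβ family, at -1.003, the endoribonuclease Endou at -0.98 and Arrb1, which encodes β-arrestin 1, at -0.97 on the log2 scale. Cd81, a tetraspanin, differed by -0.82 ± 0.06 with an adjusted p of 2.71e-09.

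Interferon-stimulated genes were lower in part. Of 42 tested members, 15 were lower with TCDCA (35.7%, against 8.04% of all genes), 4 were higher (9.5%, against 5.08% of all genes) and 23 were not called. The median log2 fold change was -0.11. By library, the list median relative to the control mean was -0.171 to -0.073 with TCDCA and -0.106 to 0.064 in control, ranges that overlap. The higher members numbered 1 without TCDCA replicate 1 or control replicate 2 and 2 without TCDCA replicate 2 or control replicate 3. The lower members were mostly antiviral effectors and sensors of type I interferon responses. The higher members were Gbp6, Gbp4, Irgm1 and Ifi35. The promoters of Ifit1, Rsad2 and Isg15 are shown because they hold the interferon-stimulated response element, searched as TTTC, any 2 bases and TTTC again, or its reverse complement, in capitals (RefSeq, GRCm38.p6, same window).
Ifit1, chr19:34640639-34640938, plus strand: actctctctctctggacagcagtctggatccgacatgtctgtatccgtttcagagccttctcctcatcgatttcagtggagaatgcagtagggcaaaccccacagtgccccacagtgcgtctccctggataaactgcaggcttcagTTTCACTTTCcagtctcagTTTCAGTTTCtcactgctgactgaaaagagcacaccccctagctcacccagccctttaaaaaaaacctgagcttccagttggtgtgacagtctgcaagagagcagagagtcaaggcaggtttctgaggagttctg
Rsad2, chr12:26456403-26456702, minus strand: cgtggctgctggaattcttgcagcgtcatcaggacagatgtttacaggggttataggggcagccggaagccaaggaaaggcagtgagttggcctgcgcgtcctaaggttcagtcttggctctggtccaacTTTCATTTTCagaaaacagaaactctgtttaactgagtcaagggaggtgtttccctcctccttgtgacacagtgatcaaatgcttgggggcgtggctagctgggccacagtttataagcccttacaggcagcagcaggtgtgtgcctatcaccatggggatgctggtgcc
Isg15, chr4:156200769-156201068, minus strand: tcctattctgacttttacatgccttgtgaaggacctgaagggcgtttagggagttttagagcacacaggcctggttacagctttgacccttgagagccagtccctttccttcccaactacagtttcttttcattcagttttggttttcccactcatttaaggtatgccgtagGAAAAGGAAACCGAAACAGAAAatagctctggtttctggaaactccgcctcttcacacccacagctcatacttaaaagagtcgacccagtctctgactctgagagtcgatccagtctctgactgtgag

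Searched on both strands with overlaps allowed, this motif stood in 3.2% of the 9904 promoters. It stood in 3.4% of those of genes called lower and in 3.6% of those of genes called higher. In the interferon list it stood in 18 of 29 promoters (62.1%), counted whether the gene was called or not, which describes the list and not the change.

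Ifit1, which binds viral RNA, stood at 3.06, 3.28 and 3.82 CPM in the TCDCA libraries, against 8.49, 12.4 and 8.98 CPM in the control libraries. The groups did not overlap, and the control libraries spread more widely than the TCDCA libraries (log2 fold change -1.55 ± 0.18, adjusted p = 1.21e-06). Rsad2 (viperin), a radical enzyme that blocks viral replication, had 29, 42 and 34 counts in the TCDCA libraries, against 79, 126 and 93 counts in the control libraries without overlap (log2 fold change -1.47 ± 0.23, adjusted p = 8.91e-05). Isg15, a ubiquitin-like modifier, differed by -0.90 ± 0.16 and Mx2, an antiviral GTPase, by -1.47 ± 0.29 on the log2 scale. Guanylate-binding proteins were also among the lower members. Gbp5 had 82.8, 79.2 and 84.6 CPM in the TCDCA libraries, against 119, 132 and 121 CPM in the control libraries. No TCDCA library reached the control range (log2 fold change -0.60 ± 0.05, adjusted p = 9.15e-09). Gbp2 differed by -0.37 ± 0.06, while Gbp6 was higher by 0.32 ± 0.05. The guanylate-binding proteins are close paralogs, so reads could have been divided between them. The RNA sensors Ifih1 (MDA5) and Dhx58 (LGP2) had log2 fold changes of -0.49 and -0.59. The chemokine Cxcl10 had 28, 31 and 35 counts in the TCDCA libraries, against 71, 121 and 72 counts in the control libraries without overlap (log2 fold change -1.45 ± 0.22, adjusted p = 5.70e-05).

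Genes that T cell receptor signals induce were lower where they changed. Of 36 tested members, 9 fell (25.0%, against 8.04% of all genes). By edgeR and by DESeq2 0 rose, while 4 were higher at an unadjusted p under 0.05. The median log2 fold change was -0.14. Irf4, the transcription factor whose level follows the strength of the T cell receptor signal, had 232, 230.3 and 242 CPM in the TCDCA libraries, against 352, 368 and 365 CPM in the control libraries. It had the smallest adjusted p of the comparison, and the groups were far apart relative to their spread (log2 fold change -0.62 ± 0.04, adjusted p = 5.23e-11). Tnfaip3 (A20) and Nfkbia (IκBα), which restrain NF-κB and are its targets, differed by -0.68 ± 0.13 and -0.50 ± 0.08 on the log2 scale. The costimulatory receptors Tnfrsf4 (OX40), Tnfrsf9 (4-1BB) and Tnfrsf18 (GITR) differed by -0.56, -0.55 and -0.49. Myc, which activation also raises, stood at 459.8 ± 21.5 CPM with TCDCA and 492 ± 30.5 CPM in control (SD, n = 3 each) and was not called (log2 fold change -0.10 ± 0.07, adjusted p = 0.365).

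Inhibitory receptors moved both ways, with 3 of 20 higher and 3 lower (15% each, against 5.08% and 8.04% of all genes). The higher ones numbered 1 without TCDCA replicate 1 or 2 or control replicate 2. Ctla4, which competes with Cd28 for its ligands, stood at 210.2, 190.1 and 214 CPM in the TCDCA libraries, against 328, 355 and 326 CPM in the control libraries. Every TCDCA library was below every control library (log2 fold change -0.72 ± 0.06, adjusted p = 9.15e-09). The costimulatory receptor Cd28 differed by -0.41 ± 0.08, Lag3, a receptor for MHC class II, by -0.43 ± 0.07 and the adenosine receptor Adora2a by -0.46 ± 0.07 on the log2 scale. Cd244 (2B4), a SLAM family receptor of NK cells and CD8+ T cells, led the rises in the ranking of genes of at least 10 CPM in a group, which it entered through its TCDCA level alone. It had 11.5, 11.8 and 11.9 CPM in the TCDCA libraries, against 7.65, 6.57 and 7.26 CPM in the control libraries. The 3 TCDCA libraries were nearly equal and all above control (log2 fold change 0.71 ± 0.08, adjusted p = 1.92e-06). Cd160 was also higher (0.37 ± 0.10), a call that was lost without TCDCA replicate 1 or 2 or control replicate 2 or 3 (adjusted p = 0.0612 to 0.0998). Pdcd1, which encodes PD-1, differed by -0.02 ± 0.09 with a 95% interval of -0.21 to 0.18 and was not called (adjusted p = 0.941).

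Naive and memory T cell genes were lower in 10 of 27 cases (37.0%, against 8.04% of all genes) and higher in 1 (3.7%, against 5.08%). The median log2 fold change was -0.14. Slamf6, a marker of progenitor and memory-like CD8+ T cells, had 16.7, 18.4 and 16.9 CPM in the TCDCA libraries, against 31.6, 32.7 and 32.3 CPM in the control libraries. The groups were clearly apart (log2 fold change -0.89 ± 0.08, adjusted p = 2.03e-08). S1pr1, the receptor by which T cells leave lymph nodes, and Klf2, the factor that drives S1pr1, differed by -0.59 ± 0.16 and -0.50 ± 0.15. The call of S1pr1 was lost without TCDCA replicate 2 or 3 or control replicate 1 or 2 (adjusted p = 0.0535 to 0.0721) and that of Klf2 without TCDCA replicate 1, 2 or 3 or control replicate 1 or 2 (adjusted p = 0.0502 to 0.14). The interleukin 7 receptor Il7r differed by -0.47 ± 0.05. Cxcr4, a homing receptor of the trafficking list, differed by -0.68 ± 0.08. Of the 25 tested members of that list 7 fell (28.0%, against 8.04% of all genes). In that list 0 rose by edgeR, by DESeq2 or at an unadjusted p under 0.05. The 7 became 3 without TCDCA replicate 2 or 3 or control replicate 2 and 4 without control replicate 1. Lef1 and Satb1, transcription factors of resting T cells, differed by -0.23 and -0.24 on the log2 scale. Tcf7, which encodes TCF1, did not pass the test (log2 fold change -0.05 ± 0.13, adjusted p = 0.845).

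**Figure D3:**
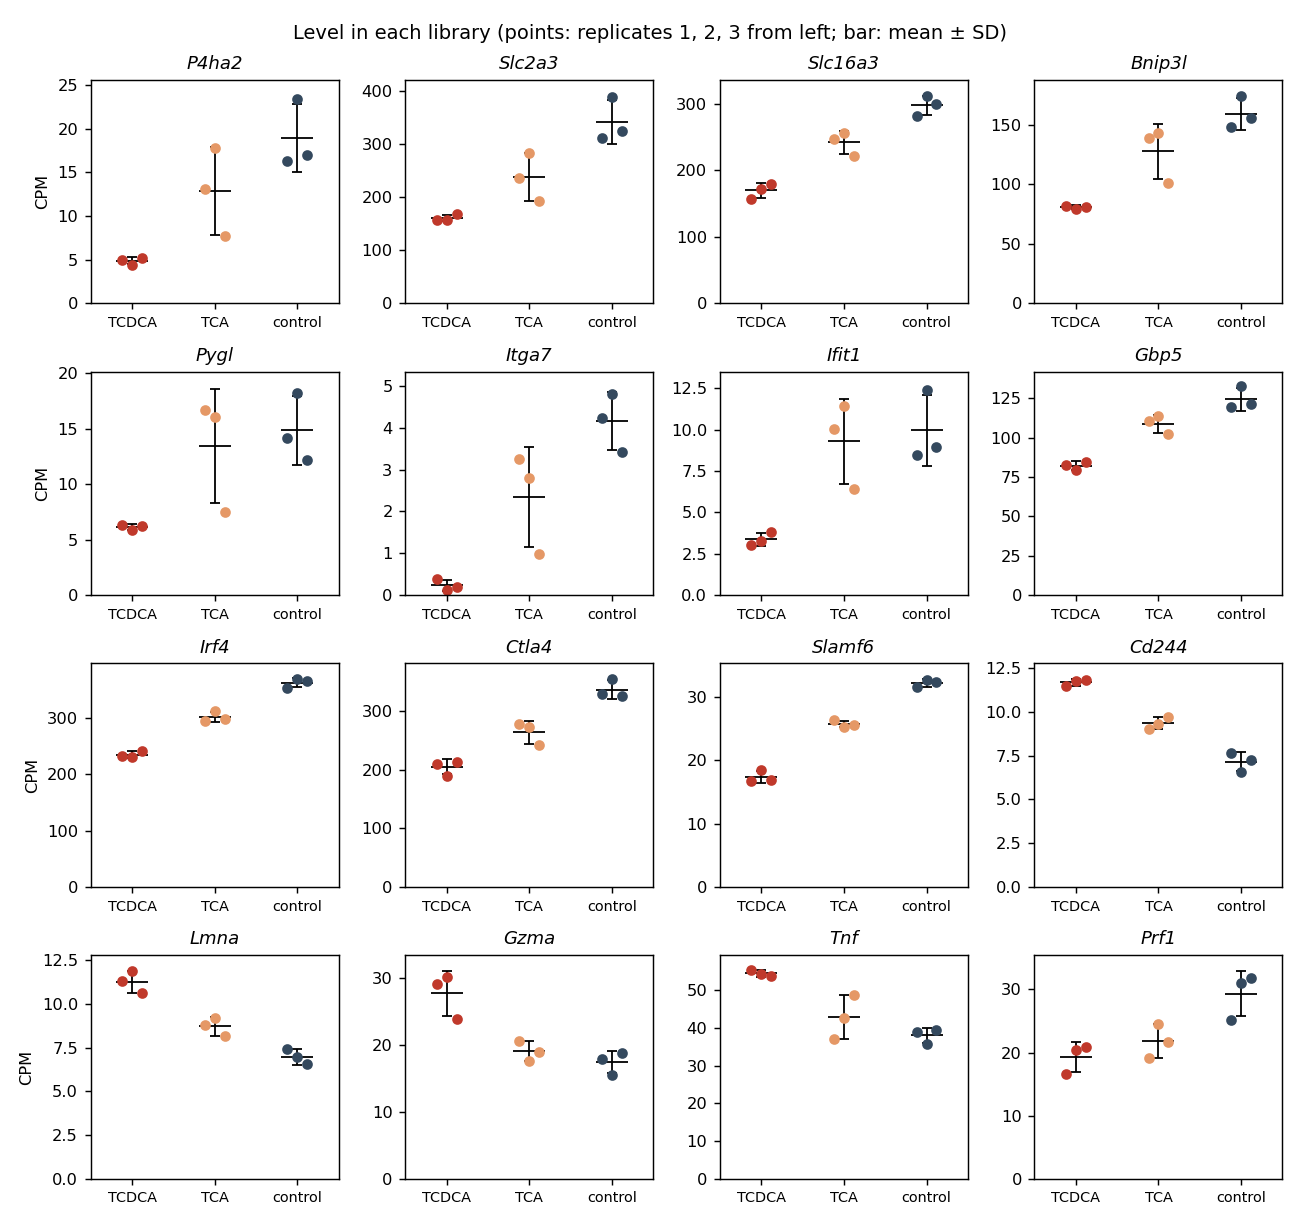
Levels of 16 genes in CPM in each TCDCA, TCA and control library (points, replicates 1 to 3 from left), with the mean and SD of each group. The TCDCA and control points do not overlap in any panel, which the naming rule required of the genes ranked by size of change. TCA replicate 3 lies below the other TCA libraries for P4ha2, Bnip3l, Pygl and Itga7.

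Cytotoxic effector genes also split, with 7 of 27 higher (25.9%, against 5.08% of all genes) and 4 lower (14.8%, against 8.04%). Gzma, which encodes the serine protease granzyme A, stood at 29.1, 30.2 and 24 CPM in the TCDCA libraries, against 17.9, 15.6 and 18.8 CPM in the control libraries. Every TCDCA library was above every control library, with replicate 3 the lowest of the TCDCA libraries (log2 fold change 0.67 ± 0.10, adjusted p = 2.39e-05). Tnf, the inflammatory cytokine, had 55.5, 54.2 and 53.8 CPM in the TCDCA libraries, against 39, 35.7 and 39.5 CPM in the control libraries. The groups did not overlap (log2 fold change 0.52 ± 0.07, adjusted p = 5.55e-06). The death ligands Fasl and Tnfsf10 (TRAIL) were higher by log2 fold changes of 0.44 ± 0.05 and 0.37 ± 0.08. Eomes, a T-box factor of effector and memory CD8+ T cells, was higher by 0.33 ± 0.08. The pore-forming perforin Prf1 ran the other way, at 16.6, 20.5 and 20.9 CPM in the TCDCA libraries, against 25.2, 31 and 31.8 CPM in the control libraries. Each TCDCA library was below each control library (log2 fold change -0.60 ± 0.11, adjusted p = 2.86e-04). Prdm1, which encodes the effector regulator Blimp-1, differed by -0.69 ± 0.06 (adjusted p = 2.03e-08). Gzmb, which encodes granzyme B, was not called, at 3989.5 ± 146 CPM with TCDCA and 3784 ± 230.0 CPM in control (SD, n = 3 each) and with a 95% interval of -0.10 to 0.25 on the log2 scale. Ifng was low and not called, at 4.54 ± 0.498 CPM with TCDCA and 4.43 ± 0.974 CPM in control (log2 fold change 0.04 ± 0.17, adjusted p = 0.922).

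Among cytokines and chemokines, 3 of 18 were higher (16.7%, against 5.08% of all genes) and 4 were lower (22.2%, against 8.04%). The higher count became 1 without TCDCA replicate 3 or control replicate 1 or 2. It became 5 without the filter on low counts or with only the 6 libraries compared fitted. The chemokine Ccl5 differed by -0.60 ± 0.13 on the log2 scale. Cytokine receptors were higher in 7 of 24 cases (29.2%, against 5.08% of all genes) and lower in 4 (16.7%, against 8.04%). Ifngr2, the signalling chain of the interferon γ receptor, had 10.8, 10.8 and 9.13 CPM in the TCDCA libraries, against 6.44, 7.68 and 6.99 CPM in the control libraries. All TCDCA libraries were above all control libraries (log2 fold change 0.55 ± 0.08, adjusted p = 5.14e-05). Il15ra and Il12rb1, chains of the interleukin 15 and 12 receptors, were higher by 0.38 and 0.22 on the log2 scale, and the fall of Il7r is given above.

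The other large rises were in genes of varied function. Lmna, which encodes the nuclear lamins A and C, had 11.3, 11.9 and 10.6 CPM in the TCDCA libraries, against 7.43, 6.94 and 6.55 CPM in the control libraries. The groups were apart, which entry to the ranking required (log2 fold change 0.69 ± 0.07, adjusted p = 1.88e-07). Vash1, a tubulin carboxypeptidase, Gcnt1, an enzyme that branches O-glycans, Tnfrsf21 (death receptor 6) and Tnfsf11 (RANKL) were higher by log2 fold changes of 0.58, 0.55, 0.49 and 0.49. Fam19a3 and Sh2d5 were higher by 0.58 and 0.58. Among scarcer genes Adora3, the adenosine A3 receptor, had 92, 107 and 75 counts in the TCDCA libraries, against 30, 39 and 46 counts in the control libraries. Tmigd3 shares the end of this locus (chr3:105870858-105908928 against chr3:105904421-105908928 for Adora3, mm10, both on the plus strand) and had 56, 68 and 48 counts with TCDCA and 20, 24 and 29 counts in control, so the 2 values are not independent. Ahrr, the repressor of the aryl hydrocarbon receptor, Nlrp6 and Klhl30 were the other scarce rises, at 1.01 ± 0.29, 1.28 ± 0.30 and 0.87 ± 0.21 on the log2 scale. The call of Ahrr was lost without TCDCA replicate 1 or 2 or control replicate 2 or 3 (adjusted p = 0.0588 to 0.0824) and that of Klhl30 without TCDCA replicate 2 (adjusted p = 0.0788). Of surface molecules of the T cell itself, Cd8a had 770.2, 774 and 741 CPM in the TCDCA libraries, against 636, 616 and 626 CPM in the control libraries. The difference was small and without overlap (log2 fold change 0.28 ± 0.04, adjusted p = 3.70e-06), and Thy1 was higher by 0.25 ± 0.04.

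The receptors of bile acids were scarce. Nr1h4 (FXR) and Gpbar1 (TGR5) had 1 count each over the 3 TCDCA libraries and 0 counts over the 3 control libraries, and the bile acid transporter Slc10a2 had 0 in all 6. Of the 35 receptors, targets and transporters listed, 15 could be tested. S1pr2 had 8.67, 7.17 and 7.94 CPM in the TCDCA libraries, against 9.48, 9.60 and 9.03 CPM in the control libraries. The highest TCDCA library stayed under the lowest control library, and the difference passed the test (log2 fold change -0.24 ± 0.08, adjusted p = 0.0496). That call was lost without the filter on low counts (adjusted p = 0.0724), with only these 6 libraries fitted (adjusted p = 0.0755) and with DESeq2 (adjusted p = 0.0693), and without TCDCA replicate 2 or 3 or control replicate 1, 2 or 3 (adjusted p = 0.0650 to 0.225). Slco3a1, an organic anion transporter, was higher by 0.16 ± 0.05 (adjusted p = 0.0437), also lost without the filter on low counts (adjusted p = 0.0554) and without TCDCA replicate 1 or 2 or control replicate 1, 2 or 3 (adjusted p = 0.0854 to 0.186). The vitamin D receptor Vdr, which senses lithocholic acid, was not called (log2 fold change 0.25 ± 0.16, adjusted p = 0.319). Of 20 tested genes that cyclic AMP induces or that break it down, 4 were lower (20%, against 8.04% of all genes). The 1 higher member (5%) stood near the 5.08% of all genes. The phosphodiesterases Pde4b and Pde4a differed by -0.47 ± 0.07 and -0.41 ± 0.09 and the cyclic AMP-responsive factor Crem by -0.37 ± 0.06, while Sik1, a kinase that represses cyclic AMP targets, was higher by 0.20 ± 0.05.

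Of 27 tested genes of cholesterol synthesis and uptake, 4 were higher (14.8%, against 5.08% of all genes), a count that became 1 without control replicate 1 and 2 without TCDCA replicate 2 or 3 or control replicate 2, and 1 was lower (3.7%, against 8.04% of all genes). Of 18 fatty acid genes, 3 were higher and 3 lower (16.7% each, against 5.08% and 8.04% of all genes). The higher ones, which include the fatty acid synthase Fasn (0.21 ± 0.06), numbered 0 without TCDCA replicate 2 or 3 or control replicate 1, 2 or 3 and 1 without TCDCA replicate 1 or without the filter on low counts, and the lower ones 1 without control replicate 2 and 6 with only the 6 libraries compared fitted. The call of Fasn was lost without TCDCA replicate 1, 2 or 3 or control replicate 1, 2 or 3 (adjusted p = 0.0532 to 0.103). Scd1, a desaturase that makes monounsaturated fatty acids, had 157, 162 and 200.3 CPM in the TCDCA libraries, against 219, 249 and 238 CPM in the control libraries. The groups did not overlap (log2 fold change -0.44 ± 0.10, adjusted p = 0.00345). The cholesterol exporter Abcg1, 1 of the 3 lower genes among 14 liver X receptor targets (21.4%, against 8.04% of all genes), was lower by a log2 fold change of -0.43 ± 0.08.

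The antioxidant list held 5 members higher and 5 lower of 25 (20% each, against 5.08% and 8.04% of all genes). The lower ones numbered 3 without TCDCA replicate 1, 2 or 3 or control replicate 2. Gclm and Gclc, the subunits of the enzyme that begins glutathione synthesis, and Txnrd1, thioredoxin reductase, were higher by log2 fold changes of 0.36 ± 0.05, 0.26 ± 0.04 and 0.27 ± 0.04. Nfe2l2, which encodes the factor NRF2, was higher by 0.21 ± 0.04. The lower members included the pentose phosphate enzymes G6pdx and Pgd at -0.23 and -0.16 on the log2 scale. In the integrated stress response list 2 of 38 were higher (5.3%) and 5 lower (13.2%), against 5.08% and 8.04% of all genes. The lower count became 8 without control replicate 1 or with only the 6 libraries compared fitted. The lower ones included Vldlr and Ddit4, an inhibitor of mTORC1 that is also a hypoxia gene (-0.50 ± 0.04). The metallothioneins Mt1 and Mt2, near-identical metal-binding proteins whose reads could be divided, were lower by log2 fold changes of -0.29 ± 0.06 and -0.33 ± 0.08. Of 19 tested antigen presentation genes 1 was higher (5.3%, against 5.08% of all genes) and 3 were lower (15.8%, against 8.04%). H2-Ab1, a chain of MHC class II that mouse T cells express little, had 17.3, 16.5 and 16.7 CPM in the TCDCA libraries, against 30.4, 34.9 and 29.4 CPM in the control libraries. The groups did not overlap (log2 fold change -0.91 ± 0.10, adjusted p = 5.36e-07), and the summed B cell markers given above were also lower with TCDCA, whose part in this value was not tested.

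Several lists held few or no called members. None of 32 genes of S phase and replication and none of 33 proteasome subunits were called, and 1 of 32 genes of G2 and M phase was. By DESeq2 the first 2 lists had 0 called as well, and at an unadjusted p under 0.05 they had 2 and 1 members lower and 0 higher. Cytosolic ribosomal proteins had 1 of 53 called and the nuclear-encoded respiratory chain 2 of 72, among them Ndufv3, a subunit of complex I, at -0.45 ± 0.05. The share called among all genes was 13.1%. Of 35 genes of Myc and ribosome biogenesis 5 were higher (14.3%, against 5.08% of all genes). In this list 0 were lower (1 lower at an unadjusted p under 0.05, 0 by DESeq2). The higher ones numbered 0 without TCDCA replicate 2 or 3 or control replicate 2, 1 without TCDCA replicate 1 and 2 without control replicate 1. They numbered 3 with DESeq2 size factors, 8 without TCA replicate 3, 11 with the replicate block and 12 with only the 6 libraries compared fitted. Of 33 lysosome and autophagy genes 7 were lower (21.2%, against 8.04% of all genes), with the autophagy factor Wipi1 at -0.93 ± 0.22. In this list 0 were higher (1 higher at an unadjusted p under 0.05, 0 by DESeq2). The remaining lists, of mitochondrial fatty acid oxidation, the T cell receptor complex, cytokine-STAT targets, bile acid synthesis, NK-type receptors, heat shock, tRNA synthetases, p53 targets, histones, cytoskeleton, liver X receptor targets, endoplasmic reticulum folding, mitochondrial ribosomal proteins and noncoding nuclear RNAs, had 0 to 4 members called in a direction. These counts are not small shares in every list. In the T cell receptor complex list 4 of 21 were higher (19%) and 3 lower (14.3%), against 5.08% and 8.04% of all genes. Of 18 heat shock genes 1 was lower and 3 higher (16.7%), or 1 higher without TCDCA replicate 2 or control replicate 1 or 2. With all libraries, the fatty acid oxidation, cytokine-STAT and p53 lists had 14.3% lower each and 0 higher. Of 20 tRNA synthetases 3 were lower, or 0 without control replicate 2 or 3.

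**Figure D4:**
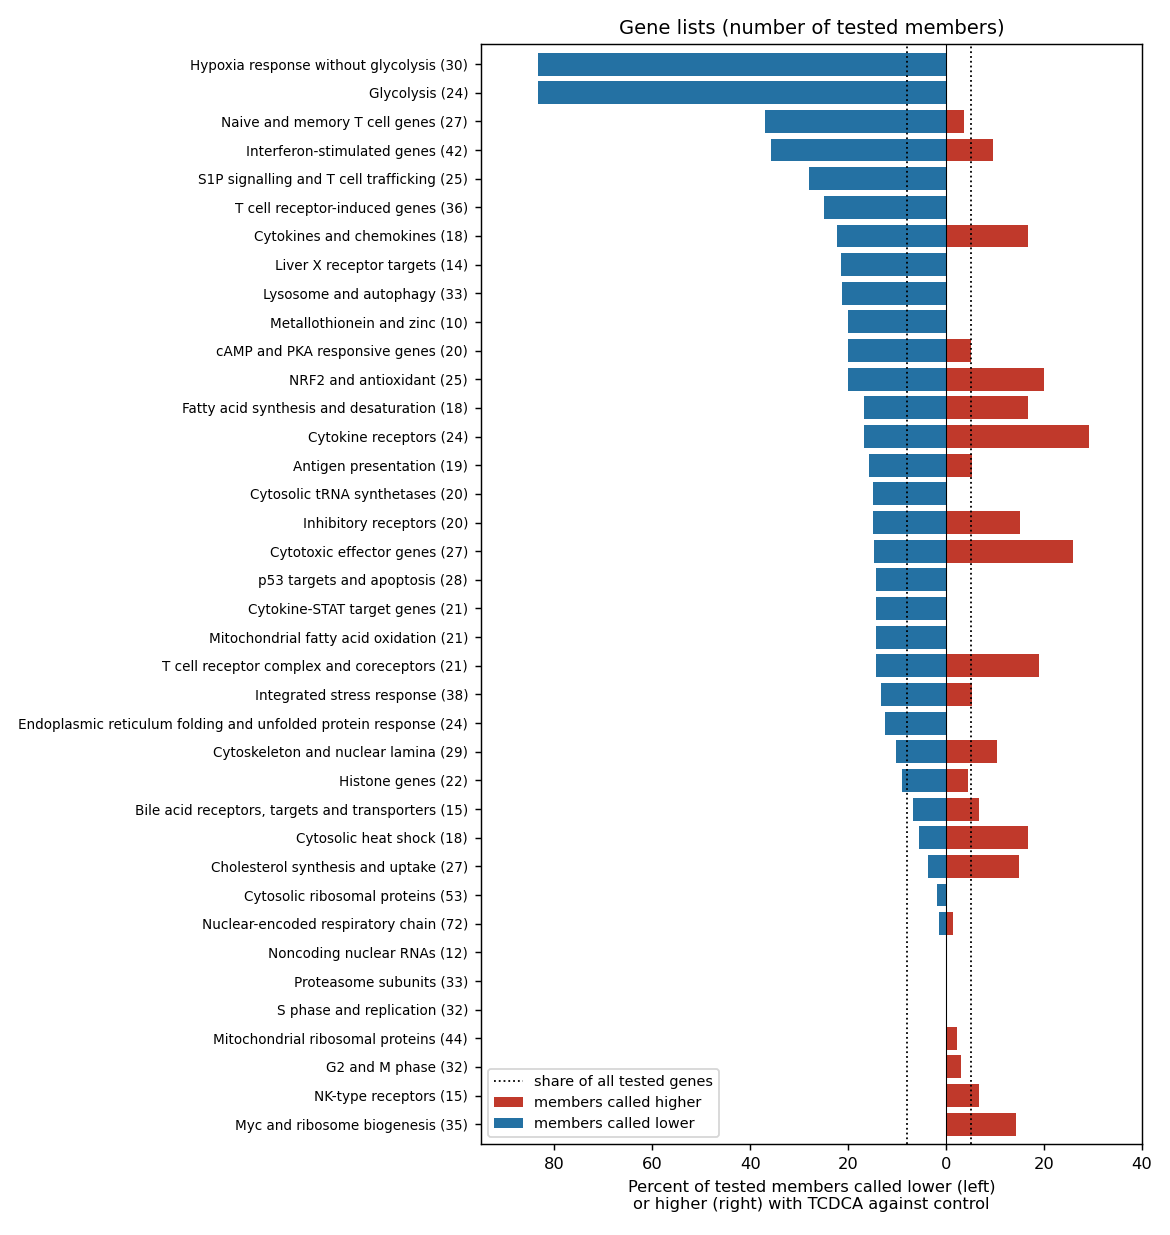
Share of the tested members of each list called lower (left, blue) or higher (right, red) with TCDCA against control; dotted lines mark the share of all 13044 genes, 8.04% lower and 5.08% higher. The hypoxia and glycolysis lists reach 83.3% lower, and the S phase and proteasome lists have no bar.

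TCDCA was then set directly against TCA, which carries 1 ring hydroxyl group more, at the same dose of 100 µM and the same exposure. The 2 comparisons share the TCDCA libraries, and this was the only pair of acids compared here. TCA replicate 3 stood apart from the other TCA libraries in many of the genes concerned: P4ha2, for instance, had 13.1, 17.8 and 7.72 CPM in the 3 TCA libraries. With all libraries, 471 genes differed between TCDCA and TCA (3.61%), 125 higher (0.958%) and 346 lower (2.65%) with TCDCA, of which 1 and 36 were beyond 2-fold. Without TCA replicate 3 the counts were 737 in all, 221 higher and 516 lower. Leaving out another library lowered them, to 185 without TCA replicate 1, 212 without TCA replicate 2, 246 without TCDCA replicate 1 and 213 without TCDCA replicate 2.

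**Figure D5:**
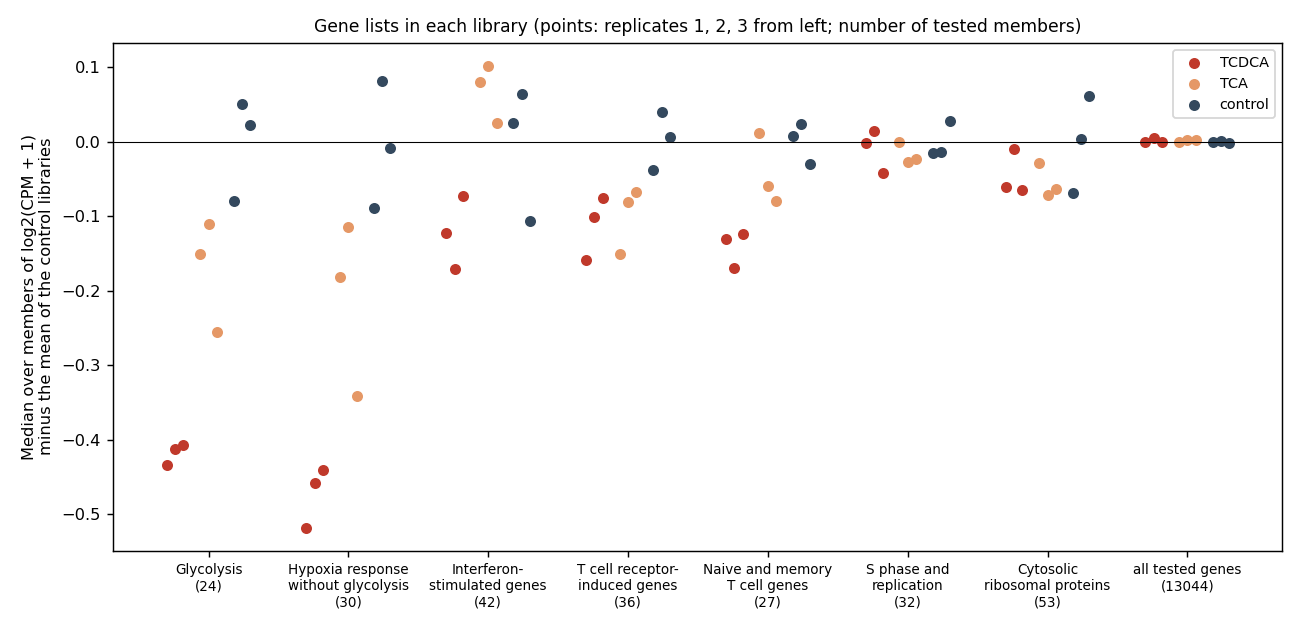
Median over the tested members of each list of log2(CPM + 1) minus the mean of the control libraries, for each TCDCA, TCA and control library (replicates 1 to 3 from left). In the hypoxia list the TCDCA libraries lie at -0.52 to -0.44, the TCA libraries at -0.34 to -0.11 with replicate 3 the lowest, and the control libraries at -0.09 to 0.08; the medians of all tested genes lie close to 0.

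Genes of the hypoxia response and of glycolysis were lower with TCDCA than with TCA as well. In the hypoxia list 17 of 30 members were lower with TCDCA than with TCA (56.7%) and 0 higher. In the glycolysis list 16 of 24 were lower (66.7%) and 0 higher. Of all genes 2.65% were lower. None were higher by DESeq2 or at an unadjusted p under 0.05 in either list, and the median log2 fold changes were -0.29 and -0.26. The 17 became 11 without TCA replicate 2. P4ha2 had 4.93, 4.41 and 5.22 CPM in the TCDCA libraries, against 13.1, 17.8 and 7.72 CPM in the TCA libraries. The TCDCA libraries were below all TCA libraries (log2 fold change -1.41 ± 0.20, adjusted p = 1.31e-04), and the log2 fold change was -1.67 without TCA replicate 3. Aldoc had 21.6, 18.9 and 23.4 CPM in the TCDCA libraries, against 44.6, 45.3 and 31 CPM in the TCA libraries. The groups did not overlap (log2 fold change -0.92 ± 0.11, adjusted p = 4.14e-05; -1.08 on the log2 scale without TCA replicate 3). Without that library 20 members of the hypoxia list and 17 of the glycolysis list were lower. Pygl differed by -1.13 ± 0.19 on the log2 scale and Nrn1 by -0.83 ± 0.09. Vegfa, Bhlhe40, Mif and 10 other members of the hypoxia list did not pass the test, and the 95% interval for Bhlhe40, a transcriptional repressor, was -0.16 to 0.06 on the log2 scale.

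Of the interferon-stimulated genes, 15 of 42 were lower with TCDCA than with TCA (35.7%, against 2.65% of all genes), or 17 without TCA replicate 3. In this list 0 were higher, with 2 higher at an unadjusted p under 0.05 and 1 by DESeq2. Ifit1 had 103, 107 and 122 counts in the TCDCA libraries, against 313, 363 and 202 counts in the TCA libraries without overlap (log2 fold change -1.46 ± 0.18, adjusted p = 4.14e-05), and its log2 fold change was -1.67 without TCA replicate 3. Among effector genes 5 of 27 were higher with TCDCA than with TCA (18.5%, against 0.958% of all genes) and 1 lower (3.7%, against 2.65%). The 5 became 3 without TCDCA replicate 1 or 2 or TCA replicate 1 or 2 and 8 with only the 6 libraries compared fitted. Gzma had 29.1, 30.2 and 24 CPM in the TCDCA libraries, against 20.7, 17.7 and 19 CPM in the TCA libraries. Every TCDCA library was above every TCA library (log2 fold change 0.54 ± 0.09, adjusted p = 0.00130; 0.53 on the log2 scale without TCA replicate 3). Tnf, Fasl and Tnfsf11 were higher than with TCA by log2 fold changes of 0.35 ± 0.07, 0.35 ± 0.05 and 0.44 ± 0.10, and the call of Tnfsf11 was lost without TCDCA replicate 2 or TCA replicate 1 or 2 (adjusted p = 0.0739 to 0.0815). Irf4 differed by -0.36 ± 0.04 and Ctla4 by -0.37 ± 0.06, both lower with TCDCA. Of the 36 T cell receptor-induced genes, however, 1 was lower than with TCA (2.8%, near the 2.65% of all genes) and 1 was higher (2.8%, against 0.958%). The median of that list relative to control was -0.159 to -0.075 in the TCDCA libraries and -0.151 to -0.068 in the TCA libraries, ranges that overlap. For Prf1 the difference from TCA did not pass the test (log2 fold change -0.17 ± 0.11, adjusted p = 0.443), with a 95% interval of -0.40 to 0.05.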

How the data were processed

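Activated mouse CD8+ T cells were profiled by RNA-seq with ultra-low input cDNA libraries, per the labels' protocols. The deposited values are expected counts per gene in steps of 0.5, made by the authors with HOMER over exons of condensed RefSeq genes on mm10 without normalization, per the file headers. STAR and DESeq2 are further tools in the submitters' processing notes. No source used here gives a strand option, so antisense and overlapping genes can share reads, and 393 genes have more than 1 copy. Values were rounded to whole counts, upward at 0.5 (29.43% were not whole); the design had assumed the same test.

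The analysis used edgeR 4.0.16 in R 4.3.3 (TMM, filterByExpr, glmQLFit, glmQLFTest). All 24 libraries were fitted with 1 coefficient per group, and genes were called at a Benjamini-Hochberg adjusted p under 0.05 over 13044 tested genes. The biological coefficient of variation common to all genes was 4.41%. The SE of a log2 fold change is its size divided by the square root of F, and 95% intervals use that SE. Within groups, libraries varied beyond sampling noise, and none was counted as a duplicate. The fit was also tested on simulated data, in which 59% of 100 genes changed 1.2-fold and 88% of 100 changed 1.5-fold were called. The changed genes were drawn from those at 1 CPM or more in control. All other genes and groups were given the control level, so the shares need not hold for the data. Of the calls, 3.92% were of unchanged genes. A gene that was not called can therefore have changed.

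Genes were named by a rule: the 12 largest changes in each direction among called genes whose higher group mean reached 10 CPM, without overlap between libraries, the 5 largest at 1 to 10 CPM, the 10 smallest adjusted p, the 4 members of each list with the smallest p, a fixed set of T cell genes, and the 6 largest differences from TCA in each direction; some of these, and other members that illustrate a list, were selected after their values were seen. The comparison, its gene lists and its tests were chosen with earlier results of these data known. Alternatives were other size factors, no filter, only the libraries compared, a replicate block, DESeq2 1.42.0, rounding down and leaving out each library. A gene of the lists is not reported here, though list counts include it.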

Additional observations from a re-analysis of the deposited data

How the results depend on the processing

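Against control, 1640 to 2029 genes were called under other size factors, no filter on low counts, only the 6 libraries, the replicate block, DESeq2 and rounding down. Against TCA the range was 467 to 662, with 218 higher genes when only the 6 libraries were fitted and 189 with the replicate block. Leaving out 1 library gave 898 to 1741 called genes against control, 282 to 673 higher and 616 to 1068 lower; the upper ends come from leaving out TCA replicate 3, which was added after seeing the data. Against TCA leaving out 1 library gave 185 to 737 called, 31 to 221 higher and 153 to 516 lower. The cause was not tested. Ifng and Pdcd1, neither of them called, changed sign on leaving out a library, with log2 fold changes of -0.10 to 0.21 and -0.082 to 0.066.

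Same-numbered TCDCA and control libraries had deviations from their group means that correlated at 0.07, -0.04 and -0.10. TCDCA replicate 2 correlated best with control replicate 3 (0.17). Over the 84 same-numbered pairs of the whole series the correlation was -0.33 to 0.40, with a median of 0.04 and 17 over 0.1. With 3 libraries in a group, these values cannot settle whether the numbers pair the libraries. The replicate block gave 1920 calls against control and 644 against TCA, and kept 1706 of the 1712 and 471 of the 471 calls. No named call was lost under it. Scarce genes such as Grin1 and Stc1 rest on under 5 counts in each TCDCA library, which limits the precision of their fold changes, and counts limit only counting error.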

Other observations

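Malat1, an abundant nuclear noncoding RNA, had 503, 371 and 546 CPM in the TCDCA libraries, against 472, 283 and 152 CPM in the control libraries. The control libraries differed severalfold among themselves, and the gene was not called (log2 fold change 0.65, edgeR adjusted p = 0.235).

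The acids given at 50 µM were not compared with TCDCA, because the doses differ. Their own log2 fold changes over the same control libraries are set beside that of TCDCA for 4 genes. P4ha2 stood at -1.96 with 100 µM TCDCA, -1.99 with LCA, -0.86 with IsoLCA, -0.07 with IsoAlloLCA, -0.56 with DehydroLCA and -1.53 with UDCA. Irf4 stood at -0.62 with 100 µM TCDCA, -0.86 with LCA, -0.66 with IsoLCA, 0.18 with IsoAlloLCA, -0.62 with DehydroLCA and -0.70 with UDCA. Gzma stood at 0.67 with 100 µM TCDCA, -0.69 with LCA, -0.68 with IsoLCA, -0.94 with IsoAlloLCA, -0.26 with DehydroLCA and 0.48 with UDCA. Ifit1 stood at -1.55 with 100 µM TCDCA, 0.65 with LCA, -0.55 with IsoLCA, -0.57 with IsoAlloLCA, 0.12 with DehydroLCA and -1.30 with UDCA. These values share the control libraries, and not all of them were called. P4ha2 with IsoAlloLCA (edgeR adjusted p = 0.733) and Gzma with DehydroLCA (edgeR adjusted p = 0.136), for instance, were not.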
